A study of Homo sapiens with 4 samples.

Results

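Long noncoding and antisense RNA genes were followed after knockdown of ADAR, which edits adenosine into inosine within RNA duplexes, in 2 human cell lines. Members were the rows of the authors' deposited tables whose Ensembl identifier has the GENCODE release 29 type antisense or lincRNA, leaving out the row named LOC541472. There were 248 such rows among 2358 in all, for 238 distinct genes, of which HepG2 had 129 of its 1413 rows and K562 had 119 of its 945. By type, HepG2 listed 101 antisense and 28 lincRNA genes, and K562 listed 69 antisense and 50 lincRNA genes.

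An antisense gene lies on the strand opposite to another gene, often a coding one, and a lincRNA gene lies between coding genes. Such RNAs are spliced and often polyadenylated like mRNA but carry no long reading frame, and many are found in few cell types. RNA from a gene and its antisense partner can pair into a duplex, the kind of structure on which ADAR acts.

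The study asked how ADAR affects splicing, and total RNA was sequenced as paired reads of 76 bases with 2 technical replicates per sample. The 4 groups, 1 sample each, were HepG2 hepatocellular carcinoma cells and K562 erythroleukemia cells, each stably carrying a plasmid either with siRNA against ADAR or with a scrambled siRNA. The ADAR siRNA was the one that lowered ADAR most among several, and whether a line was 1 clone or a pool is not given. Each row gives the authors' average for the knockdown and for the control; with 1 sample per group no test was possible, and the technical replicates were not analysed one by one here.

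Folds are the ratio of the averages after adding 1 to each, on a log2 scale unless given as a fold, and understate the change of low genes. The tables hold only rows at or past 2-fold, so an unlisted gene cannot be called unaltered. ADAR itself averaged 129 in the HepG2 knockdown and 461 in the HepG2 control, and 131 in the K562 knockdown and 275 in the K562 control. Cell identity could hardly be checked: of 12 hepatocyte markers the HepG2 table listed 1, APOE, and of 12 erythroleukemia markers the K562 table listed 0. The HepG2 table also listed 2 erythroid markers, both higher, with summed averages of 160 in the knockdown and 63.6 in the control. It listed 3 of 8 fibroblast markers, with sums of 2253 in the knockdown and 1112 in the control. DCN and LUM were higher, at 774 and 1445 in the knockdown against 261 and 528 in the control, and COL3A1 was lower, at 34.5 in the knockdown and 323 in the control. Their part in the values below was not tested.

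Antisense and lincRNA genes were mostly higher in the HepG2 knockdown and mostly lower in the K562 knockdown, close to the balance of the tables they came from. In HepG2, 79 members (61.2%) were higher and 50 (38.8%) were lower, where 55% of all listed rows were higher and 45% were lower. In K562, 36 members (30.3%) were higher and 83 (69.7%) were lower, against 38.2% and 61.8% of all listed rows. Listed protein-coding rows were 55.5% higher in HepG2 and 29.3% higher in K562, and with 1 sample per group no difference between the sets was tested. The balance rests on the scaling of the averages, which cannot be checked. With knockdown averages divided by 1.5 the HepG2 members still past 2-fold were 26.5% higher. With them multiplied by 1.5 the K562 members still past 2-fold were 56.2% higher. Both shifts are 1-sided by construction: scaling drops listed rows of 1 direction, and unlisted genes cannot enter. They are not estimates of the balance under another scaling.

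The median log2 fold of the members was 1.07 in HepG2 and -1.14 in K562, beside 1.05 and -1.10 over all listed rows. At 4-fold or more, 13 of the 129 HepG2 members were higher and 6 were lower, where 8.92% and 8.21% of the listed rows were. Both directions together made 14.7% of the HepG2 members and 17.1% of the listed rows. In K562, 2 of the 119 members were higher and 13 were lower at 4-fold, where 3.81% and 5.5% of the rows were. Together these made 12.6% of the K562 members and 9.31% of the listed rows. A median over both directions also reflects their balance, since no value lies under 2-fold. By direction, the median log2 fold was 1.24 for higher and -1.34 for lower HepG2 members, and 1.18 for higher and -1.32 for lower K562 members. Just inside the 2-fold edge lay AC022445.1, at 2.01-fold in K562.

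**Figure D1:**
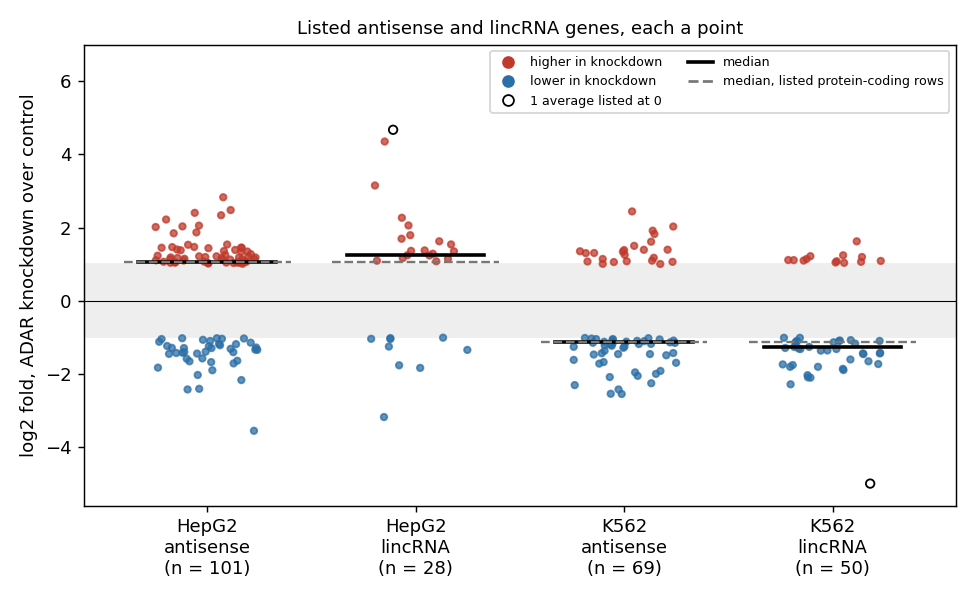
Log2 fold of every listed antisense and lincRNA gene (points) in each cell line, knockdown over control, with the median of each set (solid line) and of listed protein-coding rows (dashed). The grey band is the range under 2-fold that the tables leave out; the HepG2 medians lie above it and the K562 medians below it.

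Averages were low for most members. The larger of the 2 averages had a median of 38 in HepG2, with 34.9% of the members under 30, and of 25.8 in K562, with 55.5% under 30. Low averages were also common over all listed rows, with 30.8% under 30 in HepG2 and 47.3% in K562. The medians over all listed rows were 49.8 and 32. Among the members, the lowest values of the larger average were 14 in HepG2 and 15 in K562. Since depth is unknown, no counting error can be set beside these values, and differences between low averages are the least certain. In K562, 34 of the 50 lincRNA genes and 32 of the 69 antisense genes were under 30.

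Of 96 well-characterised long noncoding RNA symbols, 4 were members and were listed in 1 line each. HOTAIRM1, a myeloid-associated RNA, averaged 538 in the HepG2 knockdown and 194 in the control, 2.76-fold higher. UCA1, first described in urothelial carcinoma and found in several tumours, averaged 105 in the HepG2 knockdown and 44 in the control, 2.36-fold higher. FTX, a gene of the X-inactivation centre, averaged 26 in the HepG2 knockdown and 9.5 in the control, 2.57-fold higher. All 3 were higher in the HepG2 knockdown. FTX was low in both cultures and has exons that overlap 4 annotated pseudogenes, none of them listed. SNHG9, a host gene of a small nucleolar RNA, averaged 47.5 in the K562 knockdown and 21 in the control, 2.20-fold higher, where most K562 members were lower. With knockdown averages divided by 1.5, none of these 4 would remain past 2-fold.

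The highest folds in HepG2, among members whose larger average reached the members' median, belonged to AC245100.6, LINC01133, AL121748.2, AL354771.1, AL353751.1, AL109613.1, AL162582.1, IL20RB-AS1, LINC01124 and AC096649.1. AC245100.6 (ENSG00000238107), a lincRNA now named LINC02806, averaged 60.2 in the knockdown and 2 in the control, a 20.4-fold difference. LINC01133 (ENSG00000224259), a lincRNA studied in several carcinomas, averaged 87.8 in the knockdown and 9 in the control, 8.88-fold higher. AL121748.2, an antisense gene, averaged 326 in the knockdown and 45 in the control, 7.10-fold higher. In all 10 the control average was 45 or less. LINC01124 averaged 63.5 in the knockdown and 14.5 in the control, and AC096649.1 averaged 83 in the knockdown and 19.2 in the control. AC113346.1, a lincRNA of low average outside this choice, named after its values were seen, was at 24.5 in the knockdown and listed at 0 in the control, so no fold is given.

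The start regions of 5 members and 1 coding partner are shown to place these genes in the genome: LINC01133, with the second largest HepG2 fold in the choice above, 3 members that went in opposite directions in the 2 lines, and the head-to-head pair that moved apart in HepG2. They were chosen after their values were seen. The sequences are 300-base windows around the RefSeq start on GRCh38.p14, 5′ to 3′, matched by symbol for 53 of the 129 HepG2 members and 59 of the 119 K562 members. Capitals mark matches on either strand to 5 motifs. The TATA box was searched as TATAAA and the CCAAT box by its name. The GC box was searched as GGGCGG, the AP-1 site as TGANTCA and the C/EBP-ATF element as TGATGNAA. Some GC boxes lie directly beside each other.
LINC01133, chr1:159960974-159961273, plus strand: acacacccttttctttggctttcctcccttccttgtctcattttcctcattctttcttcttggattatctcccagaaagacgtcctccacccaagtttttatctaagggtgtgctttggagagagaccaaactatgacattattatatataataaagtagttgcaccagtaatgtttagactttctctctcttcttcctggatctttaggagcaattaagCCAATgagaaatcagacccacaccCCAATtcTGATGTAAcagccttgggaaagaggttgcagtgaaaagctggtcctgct
LINC01124, chr2:170714518-170714817, minus strand: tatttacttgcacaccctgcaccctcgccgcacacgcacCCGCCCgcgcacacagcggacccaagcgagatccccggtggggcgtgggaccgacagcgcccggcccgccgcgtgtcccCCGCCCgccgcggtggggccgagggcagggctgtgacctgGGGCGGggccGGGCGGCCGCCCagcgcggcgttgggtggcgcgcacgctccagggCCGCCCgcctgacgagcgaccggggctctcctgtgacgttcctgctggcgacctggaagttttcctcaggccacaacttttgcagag
ZEB1-AS1, chr10:31320398-31320697, minus strand: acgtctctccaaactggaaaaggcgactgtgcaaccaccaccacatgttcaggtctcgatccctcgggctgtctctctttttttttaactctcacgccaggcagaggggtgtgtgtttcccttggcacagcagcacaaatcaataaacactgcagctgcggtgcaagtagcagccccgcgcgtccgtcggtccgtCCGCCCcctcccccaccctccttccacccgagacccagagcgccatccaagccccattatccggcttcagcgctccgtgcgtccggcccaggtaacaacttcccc
HEXIM2-AS1 (AC138150.1), chr17:45161489-45161788, minus strand: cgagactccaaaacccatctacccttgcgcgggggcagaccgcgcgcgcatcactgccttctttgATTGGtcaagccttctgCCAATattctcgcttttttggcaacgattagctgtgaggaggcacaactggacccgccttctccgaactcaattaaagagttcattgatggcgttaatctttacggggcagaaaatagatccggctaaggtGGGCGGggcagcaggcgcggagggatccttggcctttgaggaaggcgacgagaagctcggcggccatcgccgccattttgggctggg
TTC36-AS1 (AP001267.3), chr11:118531045-118531344, minus strand: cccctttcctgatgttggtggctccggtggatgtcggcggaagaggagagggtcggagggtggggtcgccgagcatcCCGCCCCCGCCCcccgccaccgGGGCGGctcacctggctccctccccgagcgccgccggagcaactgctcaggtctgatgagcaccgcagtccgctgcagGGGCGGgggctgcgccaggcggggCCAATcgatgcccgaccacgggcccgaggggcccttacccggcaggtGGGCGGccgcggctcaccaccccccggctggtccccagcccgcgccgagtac
TMEM25, chr11:118530942-118531241, plus strand: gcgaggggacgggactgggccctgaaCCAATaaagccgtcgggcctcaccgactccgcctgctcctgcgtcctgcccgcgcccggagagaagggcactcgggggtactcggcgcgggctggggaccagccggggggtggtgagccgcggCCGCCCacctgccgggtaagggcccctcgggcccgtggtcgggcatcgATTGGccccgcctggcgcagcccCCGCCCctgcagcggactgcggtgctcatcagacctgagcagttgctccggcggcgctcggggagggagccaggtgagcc

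The start regions differed widely in composition. The LINC01133 region was 41.3% G and C with 1 CG dinucleotide, and the LINC01124 region was 74% with 38. Over 103 member start regions the median was 57.7% G and C with 14 CG dinucleotides, beside 58.7% and 14 over all 35116 regions of the table. The member set holds 1 region per symbol and the full set every region, so the shares below count unlike units. The motifs were about as common in member regions as overall: TATAAA in 13.6% of members and 11.5% of all, CCAAT in 35.9% and 34.6%, and GGGCGG in 45.6% and 45%. TGANTCA was in 5.83% of members and 7.71% of all, and TGATGNAA in 5.83% and 3.62%, each in 6 member regions. A match describes letters and not binding.

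The lowest folds in HepG2, by the same choice, belonged to AC079360.1, AC026785.3, FARP1-AS1, AP002812.2, Z82188.2, TNFRSF10A-AS1, SH3BP5-AS1, AL121759.1, LINC01679 and AC024896.1. AC079360.1 averaged 33.5 in the knockdown and 405 in the control, 11.8-fold lower, and lies opposite HPD, described with the coding partners. AC026785.3, a lincRNA, averaged 4.75 in the knockdown and 51.1 in the control, 9.07-fold lower. FARP1-AS1, opposite the guanine nucleotide exchange factor gene FARP1, averaged 13.5 in the knockdown and 58.2 in the control. AP002812.2 averaged 63 in the knockdown and 209 in the control, and Z82188.2 averaged 45.2 in the knockdown and 147 in the control. LINC01679 averaged 29.5 in the knockdown and 76.5 in the control, 2.54-fold lower. Below the first 3 of these 10, the differences were within 3.28-fold. Lower members of smaller average, outside this choice, included UST-AS1 at 5.38-fold and AC138150.1 at 5.31-fold.

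In K562 the lowest folds belonged to KIAA0087, AL139241.1, AC006252.1, AC022092.1, AC091153.3, AC022364.1, LINC01006, AP002852.1, PDCD4-AS1 and AP000866.5. KIAA0087 (ENSG00000122548), a lincRNA with a gene symbol from a cDNA project, was listed at 0 in the knockdown and at 31 in the control, and no fold is given. AC006252.1, now named TWF2-DT for its position beside TWF2, averaged 9 in the knockdown and 48.5 in the control, 4.95-fold lower. AC022092.1 averaged 9 in the knockdown and 41.5 in the control, 4.25-fold lower. LINC01006 averaged 8 in the knockdown and 32.5 in the control, and PDCD4-AS1, named for the tumour suppressor gene PDCD4, averaged 16 in the knockdown and 55 in the control. All but AP000866.5 had 16 or less in the knockdown.

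The K562 members with the highest folds moved less. AL021937.1, AC138150.1, AP003465.1, AC100782.1, TMEM44-AS1, LINC00923, AP003392.1, AC106864.1, SNHG9 and LINC01123 were between 2.16-fold and 3.08-fold higher. AP003465.1, now named UQCRB-AS1 for the respiratory chain gene UQCRB, averaged 179 in the K562 knockdown and 68 in the control. AC106864.1, now named MIR302CHG after microRNAs known from pluripotent cells, averaged 134 in the knockdown and 60 in the control. MALINC1, an antisense gene of low average named after its values were seen, had the highest log2 fold of the K562 members, 2.44, at 18 in the knockdown and 2.5 in the control.

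**Figure D2:**
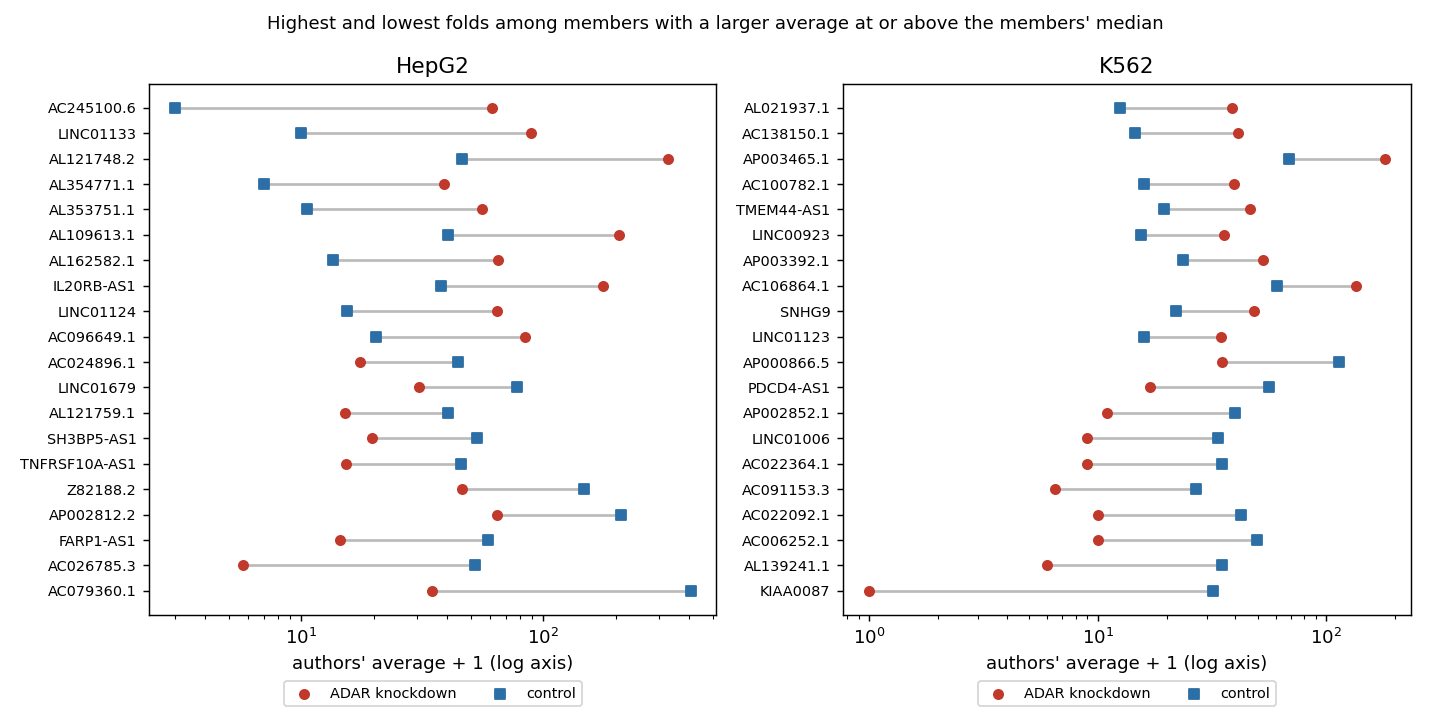
The authors' averages plus 1 (log axis) in the knockdown (circles) and control (squares) for the 10 highest and 10 lowest folds of each line, among members no lower than the members' median in the larger average. HepG2 differences reach 20.4-fold higher at AC245100.6, and K562 KIAA0087 sits at the left edge because its knockdown average was 0.

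Where an antisense gene and the coding gene on the other strand were both listed, nearly all pairs moved alike in both lines. Of 101 HepG2 antisense genes, 93 overlapped a coding gene on the opposite strand, and for 26 of these (28%) the coding gene was itself listed. In K562 this held for 5 of 63 (7.94%). Counted once per overlapped coding gene, 23 of 109 (21.1%) were listed in HepG2 and 5 of 74 (6.76%) in K562. Of all 19951 coding genes of the release, 4.52% were listed in HepG2 and 2.06% in K562, a share that counts unexpressed genes too. In 24 of the 26 HepG2 pairs both genes went the same way, 18 higher and 6 lower, and in K562 all 5 did, 1 higher and 4 lower.

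Exons of the antisense gene overlapped exons of the coding gene in 24 of the 26 HepG2 pairs and in all 5 K562 pairs. Among all antisense genes with a coding gene on the opposite strand, listed or not, exons overlapped for 79 of 93 in HepG2 and 49 of 63 in K562. The log2 folds of the 2 genes of a pair differed by a median of 0.16 in HepG2, and by 0.25 or less in 15 of 26 pairs. In K562 the median difference was 0.59. The overlap covered a median of 17.3% of the antisense gene's exon bases over the HepG2 pairs and 13.01% over the K562 pairs. Strand-specific counting is not stated, so whether reads from shared exon bases were told apart is unknown, and its part in the shared directions was not tested.

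**Figure D3:**
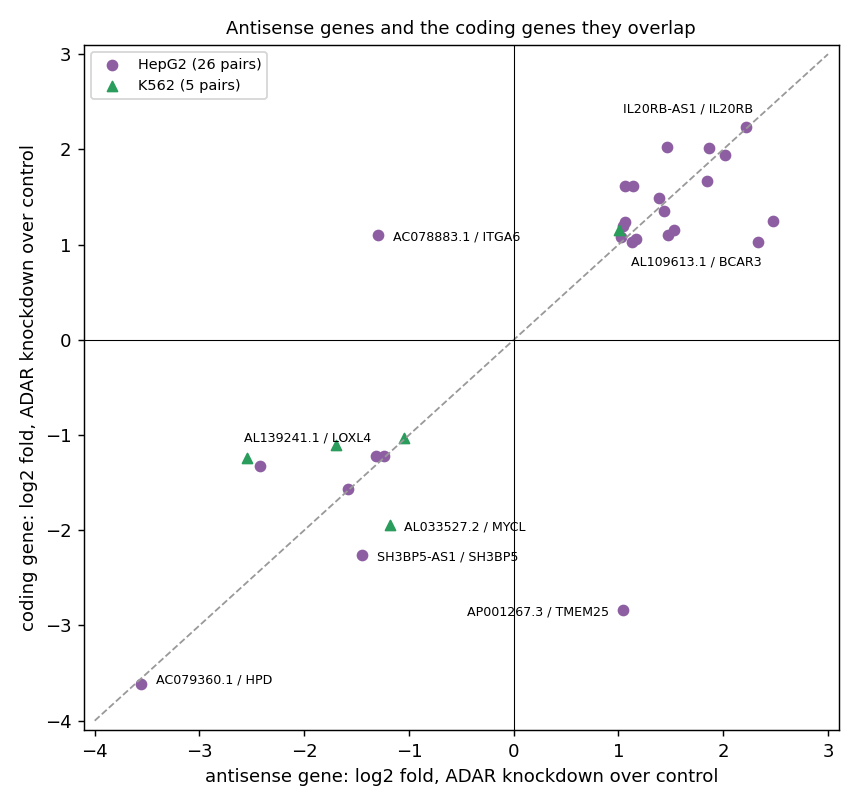
Log2 fold of each antisense gene (x axis) and of the listed coding gene it overlaps on the opposite strand (y axis), knockdown over control; circles are HepG2 pairs, triangles K562 pairs, and the dashed line marks equal folds. 29 of the 31 pairs have the same sign on both axes, and AC078883.1 and AP001267.3 lie outside them.

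The pair with the largest loss was AC079360.1 and HPD, the liver enzyme of tyrosine breakdown. The antisense gene had a log2 fold of -3.56 and HPD, at 46.9 in the knockdown and 584 in the control, had -3.61. The pair with the closest folds in HepG2 was IL20RB-AS1 and IL20RB, which encodes a receptor subunit for interleukin-20 family cytokines. IL20RB-AS1 averaged 175 in the knockdown and 36.8 in the control, and IL20RB averaged 344 in the knockdown and 72.5 in the control, with log2 folds of 2.22 and 2.23.

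For both pairs, 30 bases of the antisense transcript are shown above the coding transcript stretch to which they are fully complementary, since reads from such stretches could be assigned to either gene if strand was not used. Sequences are from GENCODE release 29 transcripts, 5′ to 3′ in lower case, and the longest uninterrupted complementary stretches were 70 and 38 bases.
AC079360.1 (chromosome 12): ctgcacgatgtagtcacaatcttccacctc
HPD: gaggtggaagattgtgactacatcgtgcag
IL20RB-AS1 (chromosome 3): gatccagatgtggctcgtgtacaggctctc
IL20RB: gagagcctgtacacgagccacatctggatc

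Coding partners in HepG2 also included WNT5A, ITGA6, BCAN and TFPI, genes of signalling, adhesion or the extracellular space, all higher in the knockdown, as were their antisense genes apart from AC078883.1. WNT5A-AS1 averaged 88.8 in the knockdown and 42.5 in the control, and WNT5A, a secreted Wnt ligand, averaged 475 in the knockdown and 207 in the control, with no exon overlap. ITGA6, the integrin alpha-6 gene, is overlapped on the opposite strand by 2 listed antisense genes that went apart. ITGA6-AS1 had a log2 fold of 1.47 and AC078883.1 of -1.29, where ITGA6 had 1.10. AC078883.1 (now PDK1-AS1) overlaps 2 coding genes on the opposite strand. Only ITGA6 was listed, with 52 shared exon bases. AL590666.2 had 1.53 beside 1.15 for BCAN, which encodes the matrix proteoglycan brevican. AC007319.1 (now CALCRL-AS1) had 1.02 beside 1.07 for TFPI, the inhibitor of tissue factor. It also overlaps 2 coding genes on the opposite strand, of which only TFPI was listed.

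Other partners in HepG2 were enzymes and regulators of metabolism and stress. CARS-AS1 averaged 202 in the knockdown and 55.5 in the control, and CARS, the cysteinyl-tRNA synthetase gene, averaged 170 in the knockdown and 52.8 in the control. DPYD, which encodes the rate-limiting enzyme of pyrimidine breakdown, had a log2 fold of 2.01, and DPYD-AS1 had 1.87. MIR137HG, a lincRNA overlapping DPYD on the same strand with 494 shared exon bases, had 1.79. The row AC079305.1 carries the symbol NFE2L2 in the table and had 1.44, beside 1.35 for NFE2L2 itself, the regulator of antioxidant genes. CYP1B1-AS1 had 1.06 and CYP1B1, a cytochrome P450 gene, 1.23. MID1IP1-AS1 had 1.17 beside 1.06 for MID1IP1, a regulator of fatty acid synthesis. These 5 coding genes and their noncoding partners were all higher in the knockdown.

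Other HepG2 pairs differed to varying degrees. AL109613.1 (now BCAR3-AS1) had a log2 fold of 2.34 and BCAR3, a signalling adaptor gene, 1.03. AL354771.1 had 2.48 and BRINP3 1.25. FAM83A, a gene raised in some tumours, had 1.61, and its antisense genes FAM83A-AS1 and AC068228.1 had 1.14 and 1.07. GRPEL2-AS1 had 1.39 and GRPEL2, a mitochondrial import cochaperone gene, 1.49; AC022445.1 had 1.13 and ERCC8, a gene of transcription-coupled DNA repair, 1.03. AL353751.1 lies on the same strand as IFIT2, an interferon-stimulated gene, with exon overlap, and had 2.40 beside 1.11. RFPL1S starts 2055 bases from NEFH, a neurofilament gene, without overlap, and had 1.21 beside 1.51.

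Other lower pairs in HepG2 involved GINS4, SH3BP5, UST and ZCCHC24. GINS4, a subunit of the replicative helicase complex, had a log2 fold of -1.22 and overlaps 2 listed antisense genes, AC009630.1 at -1.31 and AC009630.2 at -1.24. AC009630.1 (now GPAT4-AS1) overlaps 2 coding genes on the opposite strand, of which only GINS4 was listed. The exons of AC009630.2 lie to 97.5% inside those of GINS4. SH3BP5-AS1 had -1.45 and SH3BP5, a gene of a SH3-domain-binding protein, -2.26. UST-AS1 had -2.43 and UST, a sulfotransferase gene, -1.32, with 3 shared exon bases, and AL133481.1 had -1.58 beside -1.57 for ZCCHC24.

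AP001267.3 (now TTC36-AS1) and TMEM25 were the other HepG2 pair to move apart. The antisense gene overlaps exons of 3 coding genes on the opposite strand, of which only TMEM25 was listed. AP001267.3 averaged 137 in the knockdown and 66 in the control, a log2 fold of 1.05, whereas TMEM25, a transmembrane protein gene, averaged 2 in the knockdown and 20.5 in the control, a log2 fold of -2.84. The start regions of the pair printed above share 197 bases on opposite strands, and the genes share 54 exon bases in the annotation.

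In K562, AL033527.2 (now MYCL-AS1) averaged 21 in the knockdown and 49 in the control, and MYCL, a MYC family gene, averaged 8.25 in the knockdown and 34.5 in the control. AP000866.5 averaged 34 in the knockdown and 112 in the control, with a log2 fold of -1.70 beside -1.10 for NRGN, the neurogranin gene. AL139241.1 averaged 5 in the knockdown and 34 in the control, a log2 fold of -2.54 beside -1.24 for LOXL4, a lysyl oxidase family gene. All 3 pairs were lower. FLJ46906 starts 23 bases from NHSL1 and had -1.05 beside -1.04. AC022445.1 was 2.01-fold and ERCC8 2.23-fold higher, the pair that was also listed as higher in HepG2.

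The members with the highest averages were antisense genes whose exons overlap abundant or copied sequences. AC018616.1 averaged 6357 in the HepG2 knockdown and 3040 in the control, and AC023644.1, which shares 111 exon bases with it on the same strand, averaged 6336 in the knockdown and 3025 in the control. Both overlap exons of FTH1P11, a processed pseudogene that by its name is a copy of the ferritin heavy chain gene. Their log2 folds were 1.06 and 1.07, and neither FTH1P11 nor FTH1 was listed. In K562, AL355472.3 averaged 2246 in the knockdown and 1068 in the control and overlaps the processed pseudogene AL355472.2, and AC079354.3 averaged 198 in the knockdown and 536 in the control and overlaps PSMA2P3.

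Exons of 10 HepG2 members and 10 K562 members overlapped an annotated pseudogene. In HepG2 the pseudogene was listed for 2 of them, LINC00477 with KNOP1P1 and AP000873.3 with AP000873.1, all higher in the knockdown. Without the members that overlap pseudogenes, 70 of 119 HepG2 members (58.8%) and 31 of 109 K562 members (28.4%) were higher. Other high averages lay over exons of unlisted coding genes: AC009133.1, at 1430 in the HepG2 knockdown and 659 in the control, shares 1536 exon bases with MAZ, and AL160408.2, at 1257 in the knockdown and 600 in the control, shares 693 with IRF2BP2. How reads were assigned among such overlapping or copied sequences is not stated, and their part in these values was not tested.

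The 10 genes listed in both lines made up 7.75% of the HepG2 members and 8.40% of the K562 members, and 4 of them went the same way. Over all 92 rows shared by the tables, 31.5% went the same way. AL109613.1 was higher in both lines, at 204 in the HepG2 knockdown and 39.5 in the control, and at 20.5 in the K562 knockdown and 7.5 in the control. AC022445.1 was also higher in both. AC091153.3 (now PELP1-DT) was lower in both, at 5.5 in the HepG2 knockdown and 16.5 in the control, and at 5.5 in the K562 knockdown and 26 in the control. LINC01521 was lower in both, at 14.5 in the HepG2 knockdown and 30.5 in the control, and at 6.5 in the K562 knockdown and 17 in the control.

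The other 6 went in opposite directions. AC245100.6 was at 60.2 in the HepG2 knockdown and 2 in the control, and at 5 in the K562 knockdown and 15.5 in the control. LINC01124 was at 63.5 in the HepG2 knockdown and 14.5 in the control, and at 9 in the K562 knockdown and 20.5 in the control. ZEB1-AS1, which starts beside the gene of the epithelial-mesenchymal transition factor ZEB1, was at 17.2 in the HepG2 knockdown and 6.67 in the control, and at 13.2 in the K562 knockdown and 42.8 in the control. These 3, with LINC00471 and AP006623.1, were higher in the HepG2 knockdown and lower in the K562 knockdown. LINC00471 was at 15.2 in the HepG2 knockdown and 5.38 in the control, and at 10.8 in the K562 knockdown and 30.9 in the control. AP006623.1 was at 64 in the HepG2 knockdown and 29.2 in the control, and at 9 in the K562 knockdown and 20 in the control. None of these averages was above 64. AC138150.1 (now HEXIM2-AS1) ran the other way, at 6.25 in the HepG2 knockdown and 37.5 in the control, and at 40 in the K562 knockdown and 13.5 in the control.

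**Figure D4:**
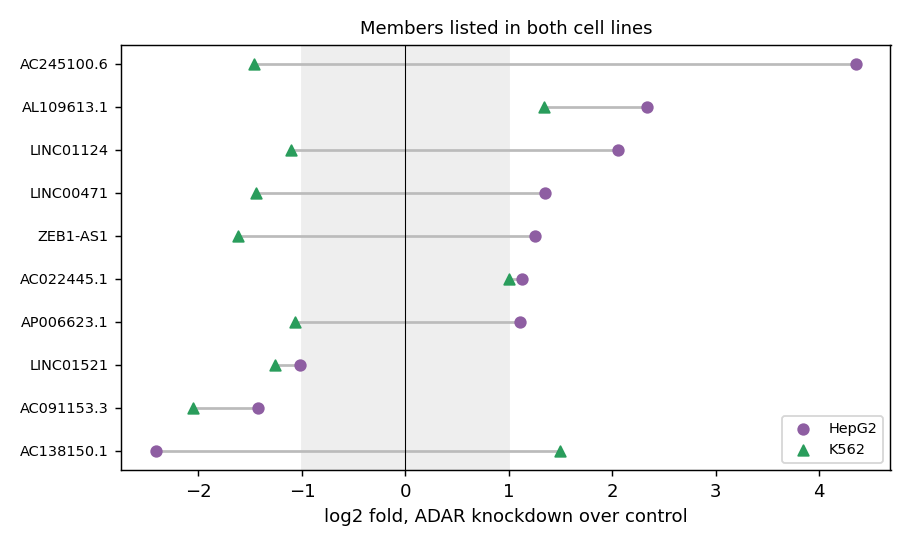
Log2 fold, knockdown over control, of the 10 members listed in both lines, with circles for HepG2 and triangles for K562; the grey band is under 2-fold. Lines that cross 0 mark the 6 genes with opposite directions, the longest being AC245100.6 at 4.35 in HepG2 and -1.46 in K562.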

How the data were processed

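Per the labels, RNA was read as paired ends of 76 bases, with 2 technical replicates per sample. TopHat, SAMtools and hg19 are named in the submitters' processing notes. How reads were counted, with which annotation, strand setting or depth scaling, is not given. The deposited tables gave an average per gene and group, treated as a signal because no unit is named, a deposited log2 fold and a deposited signed fold treated as a score. Folds were recomputed with a pseudocount of 1 and equalled the deposited log2 folds. Averages of 105 of 129 HepG2 and 109 of 119 K562 members were whole numbers when multiplied by 1, 2 or 4, within 1e-06 per unit of the multiplier. The items averaged are not named, and the library depth is unknown.

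Gene types, overlaps and start distances came from GENCODE release 29 (GRCh38) by identifier, which matched 1278 of 1413 and 840 of 945 rows. Gene positions are not printed, since the files used hg19; start regions carry RefSeq GRCh38.p14 positions. The members and lists were chosen with earlier results of these data known. Named genes were members in both tables, members with a listed coding partner or neighbour (starts within 5 kb), members among 96 characterised symbols, and the 10 highest and 10 lowest folds of each line at or above the members' median larger average. Overlap and fold code was tested on simulated data. Some coding partners are counted but not reported by name here. Groups had 1 sample, so nothing was tested. Alternatives were 3-fold and 4-fold thresholds, floors on the larger average, a pseudocount of 0.1, scaling by 1.5, other gene types, rows with a symbol and overlap on either strand; exon overlap alone was added after seeing the data. Calculations ran in Python 3.11.15 with pandas 2.3.3 and numpy 2.4.6, scipy 1.17.1 for binomial intervals that only sorted the alternatives, and plots in matplotlib 3.10.9.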

Additional observations from a re-analysis of the deposited data

Results flagged for a closer look

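The 6 genes listed in both lines with opposite directions drew attention because the single difference in each line pointed the other way. The difference between lines was not tested. Opposite directions were common among all rows shared by the lines, in 63 of 92, beside 6 of the 10 shared members. AC245100.6 had a log2 fold of 4.35 in HepG2 and -1.46 in K562, LINC01124 of 2.06 and -1.10, LINC00471 of 1.35 and -1.44, ZEB1-AS1 of 1.25 and -1.62, and AP006623.1 of 1.10 and -1.07. AC138150.1 had -2.41 in HepG2 and 1.5 in K562.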

How the results depend on the processing

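With a pseudocount of 0.1, a floor on the larger average at the table's lower quartile or at 30, all long noncoding types, antisense genes alone, overlap on either strand and exon overlap alone (chosen after seeing the data), 57.1% to 61.2% of HepG2 and 27.8% to 33.3% of K562 members were higher. Medians were 1.05 to 1.13 in HepG2 and -1.20 to -1.12 in K562, and 91.7% to 94.7% of HepG2 pairs and 100% of K562 pairs went the same way. All 81 named values kept their direction and a 2-fold difference with the smaller pseudocount, by construction, since it can only enlarge a fold. With knockdown averages divided by 1.5, 30 of the 81 fell below 2-fold, HOTAIRM1, UCA1, FTX and SNHG9 among them. Multiplied by 1.5, 16 did. None of the 81 reversed, and none could, since a factor of 1.5 is smaller than 2-fold. At 3-fold and 4-fold the HepG2 median log2 fold was 1.69 and 2.06 and the K562 median -1.83 and -2.10, with 17.6% and 13.3% of K562 members higher. These medians grow by construction, since smaller folds are dropped. With knockdown averages multiplied by 1.5, 83.2% of HepG2 and 56.2% of K562 members were higher, with medians of 1.76 and, reversed, 1.61. Divided by 1.5, 26.5% and 6.74% were higher, with medians of -1.76, reversed in HepG2, and -1.82 in K562. These scaled shares and medians move by construction, since scaling drops listed rows of 1 direction and unlisted genes cannot enter. The lincRNA genes alone had medians of 1.24 and -1.26. Rows with a symbol alone, 9 per line, were 77.8% higher in HepG2 and had a median of -1.36 in K562. HepG2 pairs went the same way in 100% at 3-fold (5 pairs), 4-fold (2), with division by 1.5 (10) and with a symbol (2). No K562 pair was left at 3-fold, at 4-fold or with symbols alone. No paired analysis was possible because each group had 1 sample, and technical replicates alone could not be run on these averages. Unknown depth limits all low averages.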

Other observations

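Other RNAs of the 96 characterised symbols were listed under gene types outside the members. In HepG2, DANCR, which inhibits differentiation of progenitor cells, averaged 202 in the knockdown and 498 in the control, MIR31HG, the host gene of miR-31, averaged 10.3 in the knockdown and 28.7 in the control, and LINC-PINT, a p53-induced RNA, averaged 63.7 in the knockdown and 25.7 in the control. In K562, H19, the imprinted RNA beside IGF2, averaged 6.83 in the knockdown and 34.1 in the control.

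MIR4435-2HG, named after its values were seen, averaged 285 in the HepG2 knockdown and 91.8 in the control, a log2 fold of 1.62; it has a near-identical copy, CYTOR, so its reads may not have been separated. ZBED5-AS1 and the lincRNA AC069360.1 overlap on opposite strands in K562 without shared exon bases and went apart, at 16.8 in the knockdown and 5.75 in the control for ZBED5-AS1 and at 6 in the knockdown and 18 in the control for AC069360.1.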
